A study of Mus musculus with 10 samples.

Results

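The regions described here are the open chromatin regions of the mouse major histocompatibility complex (MHC), the H-2 complex on chromosome 17. They were chosen by position and by peak calls: every distinct peak of the 10 deposited lists that overlapped chromosome 17 from 33900000 to 37600000 (GRCm39) was taken, and peaks that overlapped across lists were merged. This gave 290 regions of 74593 in the whole series and of 3294 on chromosome 17. A call in at least 1 library thus chose each member, and that it was called is no result. The first member started at 33903651 and the last ended at 37581974, while the nearest regions outside the window lay at 33868967 to 33869254 and at 37751436 to 37751762.

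The libraries were bulk ATAC-seq, in which a transposase cuts and tags accessible DNA, of nuclei from the ventral tegmental area, a midbrain region with dopamine neurons. All 6 mice were adults older than postnatal day 60 of the genotype ArcCreERT2 x Sun1/+, so a drug-dependent recombinase under the activity-induced gene Arc marks the nuclear envelope of cells active during labelling with the Sun1-myc-sfGFP tag. Tagged nuclei were separated on magnetic beads. The sources used here do not state when labelling took place. The 4 groups were stressed activated (early-life stress; 3 libraries), stressed non-activated (3), standard-reared activated (2) and standard-reared non-activated (2), each library from 1 animal. The 3 stressed mice and 1 standard-reared mouse gave a library to both classes. Females alone gave the standard-reared non-activated group, while the remaining groups mixed males and females. The tissue label could not be checked against marker genes, because no gene annotation of GRCm39 was used here.

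The MHC holds the genes with which cells show peptides to T cells. Class I molecules present peptides from inside the cell to cytotoxic T cells and are made by most nucleated cells, some neurons included. Class II molecules are made mainly by professional antigen-presenting cells, which in brain means chiefly microglia and other macrophages. Between them lie the class III genes, a mixed and gene-dense set with complement factors, tumour necrosis factor and heat shock proteins beside many housekeeping genes. In the mouse the class I genes stand at both ends, with H2-K1 on the centromeric side of class II and the H2-D, H2-Q, H2-T and H2-M genes beyond class III. The RefSeq gene table, which is of another build (GRCm38.p6) and was used for names and order only, has H2-K1, H2-Oa, Tap1, H2-Ab1, Btnl2, Notch4, C4b, Hspa1b, Aif1, Tnf, H2-D1, H2-T23, Mog, Gabbr1 and H2-M3 in that order, and 161 protein-coding genes from H2-K1 to H2-M3.

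The window was divided into 4 parts at rounded limits placed from general knowledge of this order, not from an annotation. The class I-K part ran from the window start to 34299999 and also holds the flank before H2-K1. The class II part ran from 34300000 to 34699999 and the class III part from 34700000 to 35474999. The class I-D/Q/T/M part, which includes non-MHC genes and the distal flank, ran from 35475000 to the window end. No region was assigned to a gene, and no sequence of a region is shown, since no GRCm39 sequence was used here.

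Lists held 7076 to 50786 peaks, of which 337 to 2234 lay on chromosome 17. The count behind a call can be read from the lists themselves: fold and p together give a whole number at a peak's summit, its pileup. Its unit is called fragments here, but the calling settings are not stated and it could be reads. The lowest pileup called on chromosome 17 was 6 or 7 fragments in the 5 activated libraries and in stressed non-activated replicate 1, and 2 to 4 in the other 4. An open region with few fragments can therefore lack a call, in the shallow lists and also in the deeper ones, whose lowest called pileup was higher. The lists were also of 2 kinds. In the 5 activated libraries and stressed non-activated replicate 1 the smallest chromosome 17 peak was 134 to 161 bp wide. There 17.5% to 21.6% of window entries repeated an interval. In the other 4 the values were 210 to 250 bp and 0 to 2.41%. The reason was not tested. Depth, list length and kind of list run partly with activation class, and their parts in any difference between classes cannot be told apart. Stressed non-activated replicate 1 was an exception, as the longest list.

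Peaks were about 3 times as dense in the MHC window as on the rest of chromosome 17. The stressed activated libraries had 92, 99 and 80 peaks in the window in replicates 1 to 3, and the standard-reared activated ones had 209 and 93 in replicates 1 and 2. The stressed non-activated libraries had 199, 65 and 53, and the standard-reared non-activated ones 41 and 81. These numbers followed list length, with the 2 longest lists far above the others. Divided by length, they were 11.1 to 56.5 peaks per Mb in the window and 3.35 to 23 per Mb outside it. The ratio of the densities within a library was far steadier. It lay between 3.11 and 3.42 in 9 libraries and at 2.34 in stressed non-activated replicate 1. Averaged per animal, the log2 ratio was 1.65 ± 0.09 (SD, n = 6 animals), a ratio of 3.15, and it was above 0 in 6 of 6 animals (two-sided exact permutation by sign flips, p = 0.0312, the smallest that 6 animals allow; adjusted p = 0.0312 over the window and its 4 parts). Without standard-reared activated replicate 1 or standard-reared non-activated replicate 2, each the only library of its animal, the ratio stayed above 0 in all 5 remaining animals and the adjusted exact permutation p was 0.0625, the smallest that 5 animals allow. This test asks whether the ratio repeats across animals, and does not compare the window with other stretches of the genome.

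**Figure D1:**
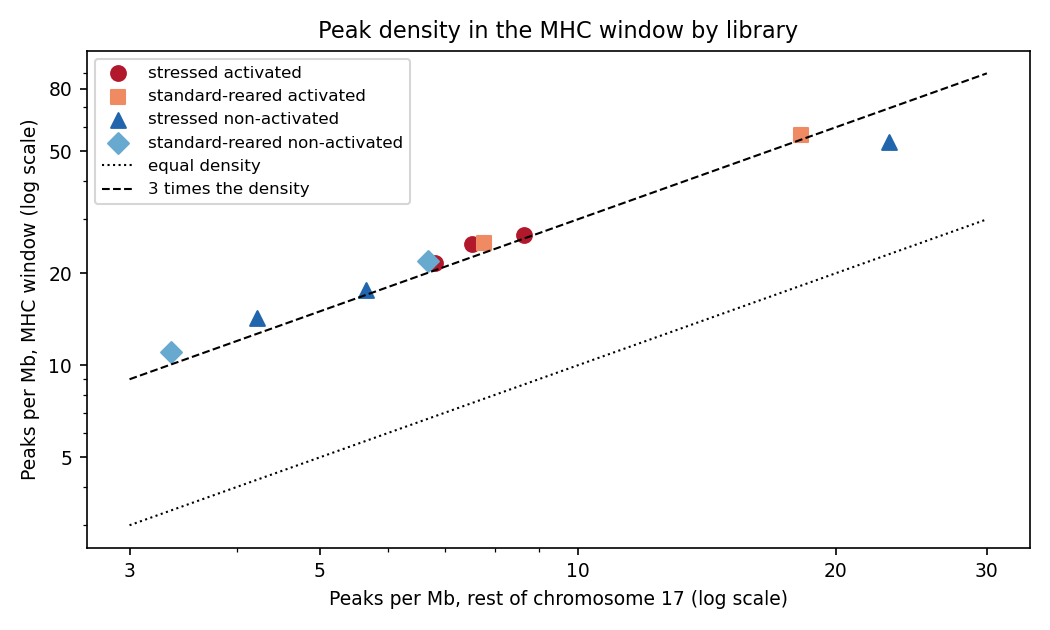
Peaks per Mb in the MHC window (vertical, log scale) against peaks per Mb on the rest of chromosome 17 (horizontal, log scale), 1 point per library, coloured by group; the dotted line marks equal density and the dashed line 3 times the density. Of the 10 libraries, 9 lie just above the dashed line, and stressed non-activated replicate 1, at 53.8 against 23 peaks per Mb, lies below it.

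Other stretches of the same length were as rich in a few places. Of 23 further stretches of 3.7 Mb on chromosome 17, 1 held more merged regions than the window, with 311 against 290, and the median was 138. Over all autosomes 10 of 638 stretches held more, with a median of 101. The window had 34 regions called in all 10 libraries, against a median of 6 over the autosomal stretches, of which 6 had more.

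With the lists as deposited, a larger share of the members than of regions elsewhere on the chromosome was called in several libraries. Of the 290, 152 (52.4%) were called in 1 library, 59 (20.3%) in 2 to 4, 45 (15.5%) in 5 to 9 and 34 (11.7%) in all 10. On the rest of chromosome 17 the shares were 66%, 15.6%, 10.9% and 7.52% of 3004 regions. The number called in all libraries was 17 of 166 with peaks of -log10 q 5 or more (10.2%, against 7.51% of all regions of the series). It was 5 when a call had to cover 50% of a region (1.72%, against 1.14%). At equal list length it was 13 of 71 (18.3%, against 22.1%), below the share of all regions. These shares are a description, since regions of 1 set of libraries are not replicates. Most single-library calls came from the 2 longest lists, with 72 in standard-reared activated replicate 1 and 66 in stressed non-activated replicate 1. The other 8 libraries added 14 in all. A further 17 regions were called in those 2 libraries and nowhere else. Of the 12 regions called in 9 libraries, 9 were missing in standard-reared non-activated replicate 1 and 3 in stressed non-activated replicate 3, the 2 shortest lists. Regions of 1 library had a median width of 199 bp and those of all 10 had 876 bp, against 205 and 952.5 bp on the rest of the chromosome. A merged region spans all its calls, so merging itself can widen regions of more libraries.

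**Figure D2:**
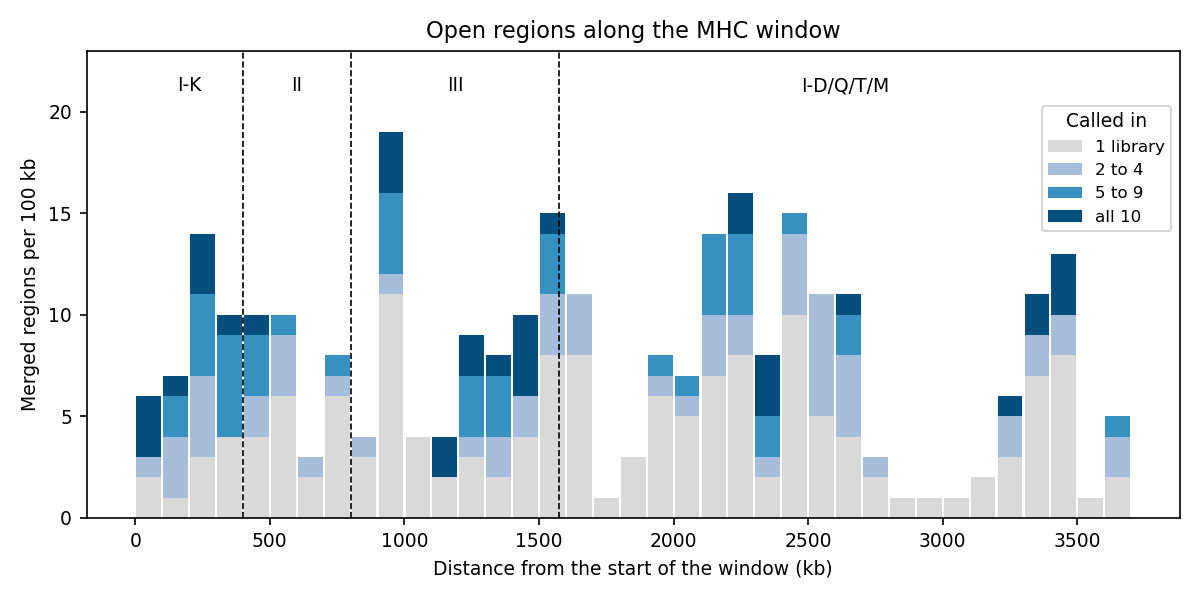
Number of merged regions in each 100 kb of the window (vertical) by distance from its start in kb (horizontal), stacked by the number of libraries that called them; dashed lines mark the limits of the 4 parts. The fullest 100 kb, in the class III part, holds 19 regions, while several stretches of the class I-D/Q/T/M part hold 1.

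Regions were unevenly spread along the complex. The fullest 100 kb, from 34800000 to 34899999 in the class III part, held 19 regions, of which 3 were called in all libraries. The emptiest were 5 stretches of 100 kb with 1 region each, which started at 35600000, 36700000, 36800000, 36900000 and 37400000. The longest stretch with no call in any library ran from 35616244 to 35781052, or 165 kb, in the class I-D/Q/T/M part. Others there ran from 36637045 to 36799098 (162 kb), 36805534 to 36964893 (159 kb) and 36965093 to 37075271 (110 kb). The median gap between neighbours was 7.10 kb in the window and 11.5 kb elsewhere on chromosome 17. How well short reads can be placed among the near-identical class I genes was not tested.

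All 4 parts were denser in peaks than the rest of chromosome 17. The class I-K part stood highest, at a ratio of 6.26 (log2 2.65 ± 0.31, SD, n = 6 animals). The class III part followed with 4.41 (log2 2.14 ± 0.24), then the class II part with 2.64 (log2 1.40 ± 0.14) and the class I-D/Q/T/M part with 2.22 (log2 1.15 ± 0.16). Each was above 0 in 6 of 6 animals, and each gave the smallest exact permutation p that 6 animals allow (0.0312; adjusted p = 0.0312). The parts also differed from each other in a comparison of all 6 pairs, added after their order was seen. The class I-K part was denser than the class III part by a ratio of 1.42 in 6 of 6 animals and 9 of 10 libraries, the exception being stressed non-activated replicate 1 (exact permutation p = 0.0312; adjusted p = 0.0312 over 6 pairs). The class III part was denser than the class II part by 0.74 on the log2 scale and than the class I-D/Q/T/M part by 0.99, in 10 of 10 libraries each (adjusted exact permutation p = 0.0312). With the rounded limits moved 50 kb towards the centromere, the difference between class III and class II kept its direction but was smaller and missed the threshold.

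The order of the class II and class I-D/Q/T/M parts was not stable. Class II was higher by 0.25 on the log2 scale as deposited (adjusted exact permutation p = 0.0312). Without stressed non-activated replicate 2 it was 0.18 (adjusted exact permutation p = 0.219). It was lower, by -0.48, with lists of equal length (adjusted exact permutation p = 0.125), where class II had only 0 to 3 peaks per library. It was again lower, by -0.64, with the limits moved 50 kb away from the centromere (adjusted exact permutation p = 0.0312). With those moved limits the class II ratio to the rest of the chromosome also fell short of the threshold, at log2 0.51 (adjusted exact permutation p = 0.0938), so the rounded limits matter for this part.

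**Figure D3:**
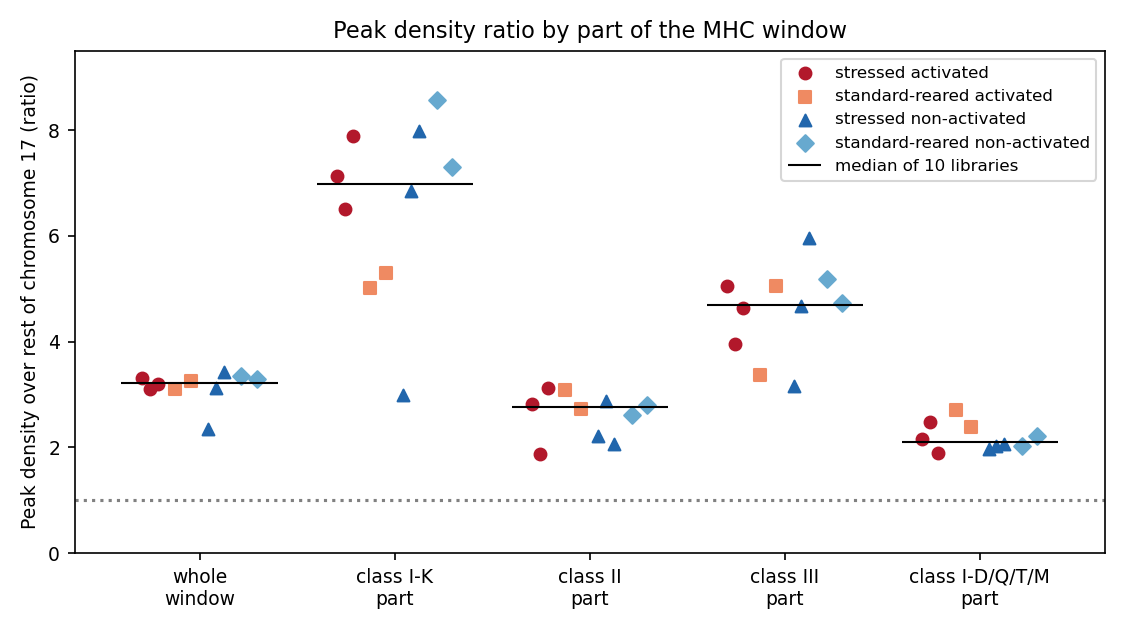
Ratio of peak density to that of the rest of chromosome 17 (vertical, linear from 0) for the whole window and its 4 parts, 1 point per library by group, with the median of the 10 libraries as a bar; the dotted line marks equal density. All points lie above 1, the class I-K part spans 2.98 to 8.57, and stressed non-activated replicate 1 is lowest there.

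The class I-K part, where H2-K1 lies beside genes such as Tapbp, which helps load class I molecules, held 37 regions in 400 kb, and 8 of them (21.6%) were called in all libraries. The median width of the 37 merged regions was 573 bp, the widest of the 4 parts. Only 27.0% of them were called in 1 library, against 52.9% to 58.1% in the other parts, and merging can widen regions of more libraries. By the rule that ranks shared regions by their weakest library, the region at 34127612 to 34128849 led the whole window. Its pileups in the stressed activated libraries were 34, 42 and 39 fragments, in the standard-reared activated ones 59 and 44, in the stressed non-activated ones 108, 31 and 15, and in the standard-reared non-activated ones 18 and 50. It stood at percentile 86.5 or above of -log10 q in every list, where 100 is the strongest peak. The region at 34109188 to 34110040 was next, at percentile 86.0 to 99.4. Its pileups were 26, 31 and 35 in stressed activated, 47 and 37 in standard-reared activated, 99, 28 and 18 in stressed non-activated and 19 and 43 in standard-reared non-activated libraries. The third, at 33903651 to 33904658, ranged from percentile 63.7 to 98.4. All 3 were strongest in fragments in stressed non-activated replicate 1, and the activated and non-activated libraries overlapped in rank.

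The class II part, where H2-Ab1 and the peptide transporter gene Tap1 lie, held 31 regions in 400 kb, of which 18 (58.1%) were called in 1 library and 1 in all 10. That 1 lay at 34338090 to 34338905. Its pileups were 39, 42 and 27 in stressed activated, 55 and 30 in standard-reared activated, 77, 25 and 15 in stressed non-activated, and 22 and 47 in standard-reared non-activated libraries. It ranked between percentile 29.0 and 81.8, with no order by class. Another 4 class II regions were called in 8 or 9 libraries. Of these, the one at 34354281 to 34354851 was called in all 5 activated and 4 non-activated libraries at percentile 47.7 to 89.2. The part with the class II genes thus had 2.50 shared regions per Mb, against 20 in the class I-K part, 16.8 in class III, 5.65 in class I-D/Q/T/M and 2.56 on the rest of chromosome 17.

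The class III part, with complement gene C4b, the heat shock gene Hspa1b, the microglial gene Aif1 and the cytokine gene Tnf, held 70 regions in 775 kb. Of these 37 (52.9%) were called once and 13 (18.6%) in all libraries. Its leading region, at 35068992 to 35069728, had pileups of 28, 47 and 26 in stressed activated, 51 and 41 in standard-reared activated, 84, 19 and 15 in stressed non-activated, and 15 and 33 in standard-reared non-activated libraries. It ranked at percentile 76.8 to 97.3. The regions at 35383356 to 35384458 (percentile 75.4 to 96.4) and 35113031 to 35114019 (74.2 to 90.7) were close behind. The 13 shared regions differed widely in their weakest rank, from 76.8 down to 0.572 for the one at 35353819 to 35354874.

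The class I-D/Q/T/M part, by far the longest at 2.125 Mb, held 152 regions, of which 87 (57.2%) were called once and 12 (7.89%) in all libraries. By the gene order above, the brain genes Mog, of myelin, and Gabbr1, a GABA receptor subunit, lie on its distal side. No region was assigned to them. At 36227017 to 36227958 lay the region with the highest weakest rank of the part, at percentile 76.4 to 99.3. Its pileups were 33, 59 and 39 in stressed activated, 56 and 36 in standard-reared activated, 122, 31 and 22 in stressed non-activated, and 22 and 45 in standard-reared non-activated libraries. The next were 36152077 to 36152722 (percentile 57.5 to 95.5) and 37356615 to 37357918 (46.7 to 88.9). The widest region of the window, 1695 bp at 36289901 to 36291595, also had the most summit entries, 24 over the 10 lists. It was called in every library but ranked only between percentile 13.8 and 86.8.

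**Figure D4:**
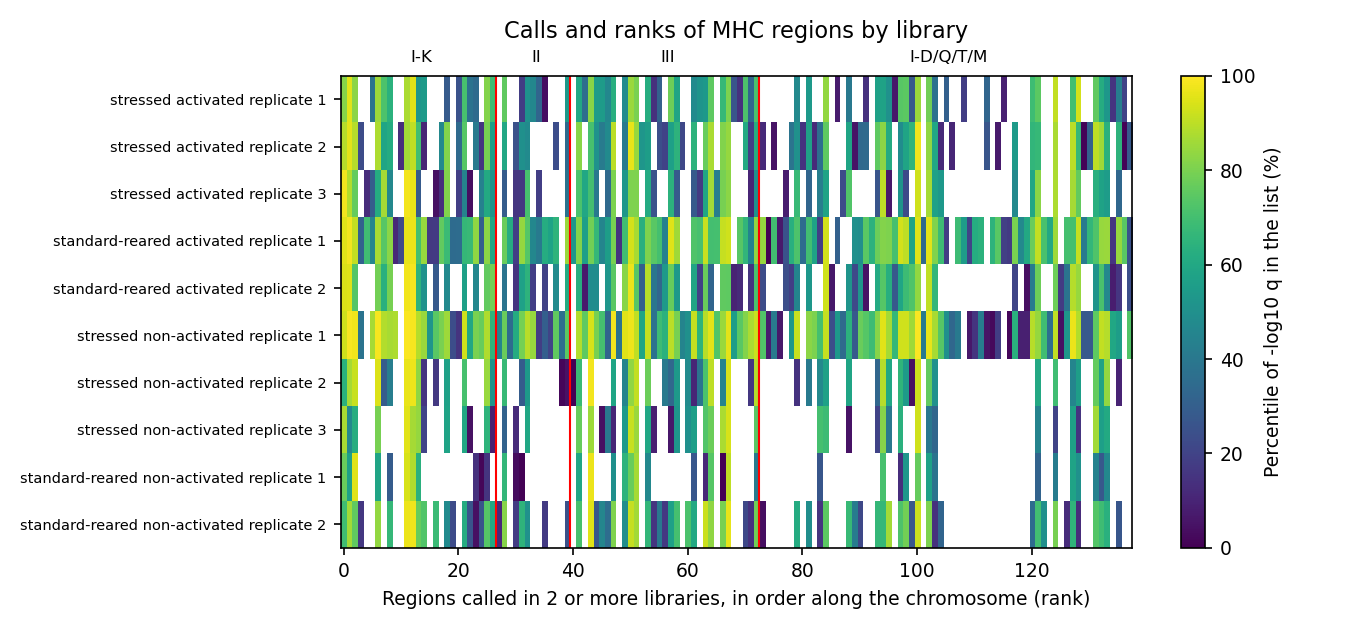
Rank of each MHC region called in 2 or more libraries, as the percentile of -log10 q in the library's own list (colour, %), by library (rows) and by order along the chromosome (columns, rank); white marks no call and red lines the limits of the parts. Of these 138 regions, the 34 called everywhere form unbroken columns, and stressed non-activated replicate 1 and standard-reared activated replicate 1 have the fewest white cells.

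Peaks of the window ranked slightly higher within their lists than those of the rest of chromosome 17, by a difference that missed the threshold after adjustment. The median percentile of window peaks was 50.6 to 63.5 over the libraries, against 48.3 to 54.5 outside. The mean difference was 4.61 ± 3.38 percentile points (SD, n = 6 animals), above 0 in 6 of 6 animals (exact permutation p = 0.0312, adjusted p = 0.0521). The class I-K part lay 14.2 ± 7.1 points and the class III part 8.77 ± 4.44 points above the rest of the chromosome, each in 6 of 6 animals (exact permutation adjusted p = 0.0521). Class II peaks lay 16.3 ± 12.2 points below it, in 5 of 6 animals (difference -16.3; exact permutation p = 0.0625, adjusted p = 0.0781). The class II medians rest on few peaks, from 3 to 22 per library. Stressed non-activated replicate 3 and standard-reared non-activated replicate 1 had 3 each, and the latter had the lowest median percentile, 3.35. The class I-D/Q/T/M part differed by 1.16 ± 4.19 points (adjusted exact permutation p = 0.562). When single libraries were left out, the adjusted exact permutation p of the window ran from 0.0391 to 0.104, on both sides of the threshold. With only peaks of -log10 q of at least 5 the difference for the whole window turned to -2.69 (adjusted exact permutation p = 0.586).

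The comparison of activated with non-activated nuclei asks whether cells once marked by Arc differ in accessibility. For the MHC it was made on the share of a library's chromosome 17 peaks that lay in the window. This share still varied with list length: the longest list had the lowest window share, and the class I-K share was 3.26% in the shortest list and 1.21% in the longest. Each difference is therefore also given with lists of equal length where its direction turned. In stressed mice the activated libraries had shares of 12.2%, 11.5% and 11.7%, and the non-activated ones 8.91%, 11.5% and 12.4%, so the groups overlapped. The means were 11.8% ± 0.3 and 11.0% ± 1.8 (SD, n = 3 each), a difference of 0.83 percentage points (two-sided exact permutation p = 0.8, smallest possible 0.1; adjusted p = 0.931 over 30 comparisons). That difference turned to -0.19 without stressed non-activated replicate 1 and to -1.09 with lists of equal length. In standard-reared mice the activated libraries had 11.5% and 11.9% and the non-activated ones 12.2% and 12.1%, with both activated values lower, by -0.40 points on average (exact permutation p = 0.333, the lowest this design can reach). Over all libraries activated nuclei had 11.8% ± 0.3 and non-activated nuclei 11.4% ± 1.4 (SD, n = 5 each; exact permutation p = 0.889). Without stressed non-activated replicate 1 the pooled difference of 0.34 points turned to -0.29.

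Rearing gave no difference in this share beyond the spread of the libraries either. In activated nuclei stressed mice had 0.07 points more than standard-reared ones (exact permutation p = 1, n = 3 and 2). In non-activated nuclei they had -1.17 points, from 11.0% ± 1.8 and 12.1% ± 0.1 (SD, n = 3 and 2; exact permutation p = 0.7), which became -0.15 without stressed non-activated replicate 1 and turned to 0.18 with lists of equal length. By animal the difference was -0.51 points (exact permutation p = 0.5, n = 3 each), and 0.19 with lists of equal length. Of the 30 comparisons, over the window, 4 parts and 6 pairs of groups, 0 passed the threshold, and 0 had an unadjusted exact permutation p under 0.05. Only the comparison of all activated with all non-activated libraries could have gone below 0.1.

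Among the parts, 3 comparisons of libraries had groups that stood apart. The class I-K share was 2.77%, 2.55% and 3.08% in stressed activated and 1.98% and 2.05% in standard-reared activated libraries. All 3 stressed values were above both others, by 0.78 points on average (exact permutation p = 0.1, the smallest possible; adjusted p = 0.931). With lists of equal length that difference turned to -0.36. In standard-reared mice the class I-K share was lower in both activated libraries than in the non-activated ones, which had 3.26% and 2.83%, by -1.03 points (exact permutation p = 0.333; adjusted p = 0.931). At equal list length the activated libraries had 3.42% and 3.53% and the non-activated ones 3.26% and 3.70%, which overlapped, with a difference of -0.0088 points. The class I-D/Q/T/M share in standard-reared mice was 5.73% and 5.00% in activated and 4.15% and 4.62% in non-activated libraries, a difference of 0.98 points (exact permutation p = 0.333; adjusted p = 0.931). At equal list length it turned to -0.06.

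With every list shortened to its 7076 strongest peaks, the window held 71 regions, 13 of them in all libraries. The activated libraries then had 39, 35, 39, 32 and 38 window peaks and the non-activated ones 44, 46, 40, 41 and 46, so the groups did not overlap in number. As a share of chromosome 17 peaks the activated libraries had 11.0% to 12.2% and the non-activated ones 11.5% to 13.6%, which overlapped, with a difference of -1.08 points (adjusted exact permutation p = 0.6).

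Regions that separated groups, called in all libraries of 1 and in none of the other, were few in the window. Each count is given beside the share over all 74593 regions of the series, the background. In stressed mice 0 of 290 were called in the activated libraries only, against a background of 0.059%, and 1 (0.345%) in the non-activated libraries only, against 0.0241%. In standard-reared mice 15 (5.17%) were called in the activated libraries only, against 3.72%, and 0 in the non-activated ones, against 0.0576%. Of these 15, 14 were also called in stressed non-activated replicate 1, which is the longest list and of the other class. Over all libraries 0 separated activated from non-activated nuclei, against 0.00938%, and 0 the reverse, against 0%. Between rearings, 0 were called in stressed activated libraries only (background 0.125%) and 2 (0.690%) in standard-reared activated libraries only (background 1.3%). In non-activated nuclei the numbers were 0 (background 0.122%) and 0 (background 0.0107%).

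The stressed non-activated region, which an earlier description of these data had also named, lay in the class III part, at 35246230 to 35246706. Its pileups were 18, 9 and 7 fragments in stressed non-activated replicates 1 to 3, and 17 in replicate 2 of the standard-reared ones. Replicate 1 of the latter and all 5 activated libraries had no call. Its rank was moderate, from percentile 48.4 to 71.8. The 5 activated libraries had lowest called pileups on chromosome 17 of 6 or 7 fragments. The 9 and 7 of stressed non-activated replicates 2 and 3 cannot be set against these directly, as pileups differ in scale between libraries. At the 34 regions called everywhere the median pileup was 17.5 and 12 in those replicates, and 24 to 42.5 in the activated libraries. Whether this region could have been called in the activated libraries was not tested. Of all 74593 regions, 6 were called in at least 4 of the 5 non-activated and no activated library (0.00804%), and this was the 1 in the window (a rule chosen after its values were seen). The converse rule gave 0 in the window and 44 in the series (0.059%). At equal list length 2 other regions of 71 (2.82%, against 0.336% of all 13403 regions) separated the stressed classes in that direction, at 35055484 to 35056320 and 36172057 to 36172599. When a call needed to cover 50% of a region, the count was 0 (background 0.063%).

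**Figure D5:**
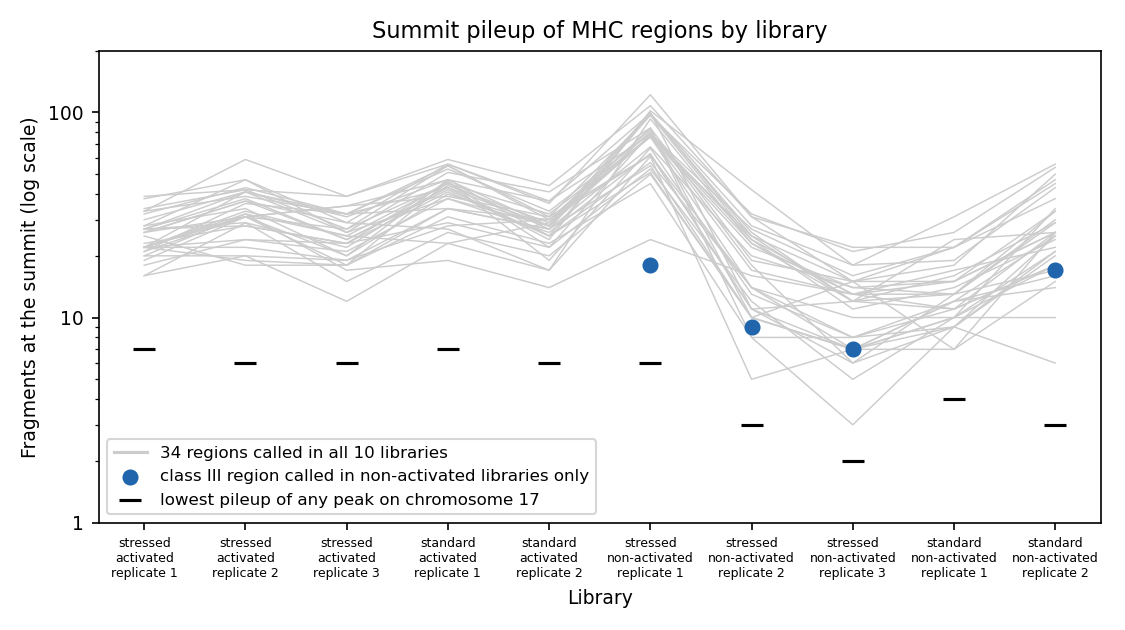
Fragments at the summit (vertical, log scale) of MHC regions in each library (horizontal). Grey lines are the 34 regions called in all 10 libraries, blue points the class III region called in 4 non-activated libraries only (18, 9, 7 and 17 fragments), and black dashes the lowest pileup of any chromosome 17 peak of that library.

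Pileup depends on both depth and enrichment over background, which were not told apart here. It varied among the libraries at the 34 regions called everywhere. Their median pileup was 24, 32 and 24.5 fragments in the stressed activated libraries and 42.5 and 28 in the standard-reared activated ones. It was 77.5, 17.5 and 12 in the non-activated libraries of stressed mice, and 13 and 26 in those of standard-reared mice. Stressed non-activated replicate 1 was thus above every activated library, and the other 4 non-activated libraries overlapped the activated ones only through standard-reared replicate 2.

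The 3 standard-reared activated regions with the highest weakest rank in their group were 34043265 to 34043806 in the class I-K part, 34528659 to 34529125 in class II and 35117207 to 35117609 in class III. The first had 21 and 19 fragments in the standard-reared activated libraries, 20, 18 and 25 in the stressed activated ones, and 48 and 5 in stressed non-activated replicates 1 and 2. The second had 16 and 14 fragments in its group, and calls of 10 in stressed activated replicate 2 and 28 in stressed non-activated replicate 1. The third had 35 and 21, with calls of 29 and 38 in the same 2 other libraries. Each was thus called in both rearings and in at least 1 non-activated library. The count of 15 rose to 124 (42.9%) without standard-reared activated replicate 2, the shorter list of that group, and the background rose with it to 34.6%. Without standard-reared non-activated replicate 2 it was 43 (14.8%), against 10.7%.

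The 2 regions called in both standard-reared activated libraries and no stressed activated one lay in the class I-D/Q/T/M part, at 37257875 to 37258552 and 36559752 to 36560122. The first had 26 and 16 fragments there, and non-activated calls of 28 (stressed replicate 1) and 8 (standard-reared replicate 2). The second had 12 and 6, and 7 in stressed non-activated replicate 1, and ranked as low as percentile 4.25. Without standard-reared activated replicate 2 the count was 95 (32.9%, against a background of 29.3%), and without replicate 1 it was 7 (3.15%, against 3.26%). Without stressed activated replicates 1, 2 and 3 it was 7 (2.43%, against 1.66%), 10 (3.47%, against 2.51%) and 4 (1.38%, against 1.59%). When a call needed to cover 50% of a region it was 10 (3.45%, against 1.52%).

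Over the window, 128 of the 290 regions (44.1%) were called in both activation classes, against 32% of all regions of the series, and 133 (45.9%) in both rearings, against 31.5%. Called in 2 or more activated and no non-activated library were 7 regions (2.41%, against a background of 1.62%). Of these, 2 were called in 3 libraries (0.690%, against 0.287%), at 35578108 to 35578541 and 37522231 to 37522760. All 7 included standard-reared activated replicate 1, the longest activated list. The reverse pattern held for 3 regions (1.03%, against 0.526%): the class III region above and 2 class II regions, at 34320579 to 34320868 and 34611168 to 34611439, each called in 2 libraries.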

How the data were processed

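Peaks of 10 ATAC-seq libraries were used, 1 list per library and not pooled. MACS2 2.2.9.1 is named in the submitters' processing notes, beside SAMtools 1.13, fastp 0.23.4, R 4.4.2, Bowtie2 2.4.5 and the build mm39 (GRCm39). The sources used here give no peak calling settings, duplicate filters or read shift, any of which could change the calls. In the deposited lists the fold is a linear ratio over local background, p and q are -log10 values, and the score is 10 times the -log10 q. Another deposited column gives the summit position.

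Distinct intervals on chromosomes 1 to 19, X and Y were counted once and merged across libraries at 1 bp of overlap. Pileups were solved from fold and p (100% whole numbers within a relative misfit of 2e-05). Density ratios used a pseudocount of 0.5 peaks. A region belongs to the part that holds its midpoint. Tests were two-sided exact permutations over animals (sign flips) or libraries, with Benjamini-Hochberg adjustment and a threshold of 0.05. P-values rest on these few mice only. Tests over libraries that compare activation classes took the libraries of 1 animal as independent. A sign-flip p at its smallest value shows only that all animals had the same sign, not how far they spread.

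The members and lists were chosen with earlier results of these data known. Named regions were, per part, up to 3 called everywhere with the highest weakest rank, up to 3 per comparison and direction that separated groups, the widest, the one with most entries, and the fullest and emptiest 100 kb. Gene lists, cell type markers and motifs could not be applied without a GRCm39 annotation or sequence.

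Per the library names, equal replicate numbers mark 1 animal in stressed mice but not in standard-reared mice, where 1 animal gave activated replicate 2 and replicate 1 of the other class. As a check, window bases shared over bases called in either (Jaccard index) had a mean of 0.409 over the 4 same-animal pairs and 0.422 over the other 21 pairs of different class. On simulated lists with a planted density ratio of 2, the method gave 1.87, and it found 100% of 200 planted separating regions and 100% of 1993 pileups. The planted regions could not overlap any other simulated peak, and the pileups were made with the same formula that was then solved. The checks of regions and pileups therefore test the code only, and not weak calls in the real lists. Other settings tried were peaks of -log10 q 5 or more, equal list length, all autosomes as reference, covered bases, every summit entry, coverage of 50%, merging within 200 bp, a pseudocount of 1, libraries as units, pairing and each library left out. Moved part limits and the pairs of parts were added after the values were seen. Python 3.11.15, NumPy 2.4.6, SciPy 1.17.1 and Matplotlib 3.10.9 were used.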

Additional observations from a re-analysis of the deposited data

Results flagged for a closer look

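A single library was looked for that stood apart from the 4 others of its activation class, with a gap above 0.71 of the range. This covered 20 measures in 2 classes, or 40 groups. Chance marks about 1 in 20 groups, and the measures overlap. The search gave 13 such values.

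Stressed non-activated replicate 1 was set apart 7 times among the non-activated libraries. Its share of chromosome 17 peaks in the window was lowest, at 8.91% (next 11.5%). So were its log2 density ratio, 1.23 for the whole window (next 1.64) and 1.58 for the class I-K part (next 2.77). Its numbers of peaks were highest, with 199 in the window (next 81), 20 in class II (next 7), 56 in class III (next 24) and 96 in class I-D/Q/T/M (next 31).

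Standard-reared activated replicate 1 was highest among the activated libraries in number of peaks, with 209 in the window (next 99), 22 in class II (next 8), 47 in class III (next 30) and 104 in class I-D/Q/T/M (next 45). Among the same libraries the class II density ratio was lowest in stressed activated replicate 2, at log2 0.91 (next 1.45). The class II rank was lowest in stressed activated replicate 3, at -26.9 percentile points from the rest of the chromosome (next -9.79), and rests on 8 peaks.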

How the results depend on the processing

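Values are log2 ratios for density, percentile points for rank and percentage points for shares, and the cause of a change was not tested unless fewer peaks or samples give it. No share comparison passed the threshold under any setting run, so the changes of sign below are among differences within the spread. The density ratios of the window and its parts kept their direction in every setting run. Limits moved 50 kb away from the centromere gave 0.51 for class II (adjusted exact permutation p = 0.0938). Merging within 200 bp and a pseudocount of 1 changed no call. Depth limits the absence of a call in the shallow lists.

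With peaks of -log10 q 5 or more, the rank difference was -2.69 for the window and -7.65 for class I-D/Q/T/M. The shares that changed sign were 0.22 (window, standard-reared classes), -0.13 (window, rearing in activated nuclei), 0.074 (class I-K, all classes), -0.18 (class II, stressed classes), 0.16 (class II, rearing in non-activated nuclei) and 0.11 (class III, the same). Regions numbered 166, with 17 in all libraries and 78 in 1. Separating regions numbered 2 (stressed non-activated; 1.20%, against 0.0577% of all regions), 8 (standard-reared activated; 4.82% against 4.17%) and 1 (stressed among non-activated; 0.602% against 0.0708%).

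With lists of equal length, window shares were -1.09 (stressed classes), -1.08 (all classes), 0.18 (rearing, non-activated) and 0.19 (by animal). Class I-K gave -0.25 (stressed classes), -0.36 (rearing, activated) and -0.27 (by animal). Class II gave -0.38 (stressed classes), -0.067 (standard-reared classes) and -0.25 (all classes), and class III 0.17 (rearing, non-activated). Class I-D/Q/T/M gave -0.058 (standard-reared classes), -0.0035 (all classes), 0.37 (rearing, activated), 0.28 (rearing, non-activated) and 0.32 (by animal). Regions numbered 71, with 13 in all libraries and 14 in 1. Separating regions numbered 2 (stressed non-activated; 2.82%, against 0.336% of all regions), 1 and 5 (standard-reared activated and non-activated; 1.41% and 7.04%, against 3.98% and 3.82%). They numbered 4 and 1 between rearings among activated (5.63% and 1.41%, against 1.31% and 1.62%), and 1 and 1 among non-activated libraries (1.41% each, against 0.41% and 1.02%).

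Against all autosomes the window share between rearings in activated nuclei was -0.00016. By covered bases it was -0.098 for the window (all classes), -0.047 for class II (stressed classes) and 0.080 for class I-D/Q/T/M (rearing, non-activated). With every summit entry it was -0.0084 for class I-K (by animal) and 0.12 for class III (stressed classes). With 50% of a region covered, 0 regions separated the stressed non-activated libraries, 10 the standard-reared activated from the stressed activated ones, and 5 regions were called in all libraries. With libraries in place of animals, rank differences were 4.13 (window), 14.1 (class I-K), -16.2 (class II) and 7.80 (class III), all past the threshold, but libraries of 1 animal are not independent.

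In the paired analysis, with a replicate block for the animal, the class I-K share over all classes was 0.069 and changed sign. The other 9 paired differences kept theirs, and all adjusted p were 1 (exact permutation, 3 or 4 animals). The block changed no call. Standard-reared mice had 1 animal in both classes, so no paired test was possible there.

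For pairs of parts, added after the values were seen, class II over class I-D/Q/T/M gave -0.17 with the stricter q, -0.48 at equal length and -0.64 with limits moved away. Class II over class III gave -0.29 with limits moved towards the centromere (adjusted exact permutation p = 0.0625).

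With each library left out in turn, a lone library was taken as its group, with no spread of its own. The density ratios ran from 1.61 to 1.7 (window), from 2.54 to 2.75 (class I-K), from 1.35 to 1.45 (class II), from 2.08 to 2.22 (class III) and from 1.10 to 1.18 (class I-D/Q/T/M). The rank differences ran from 3.49 to 5.01 (window), from 12.6 to 15.8 (class I-K), from -19.9 to -12.8 (class II), from 7.53 to 9.39 (class III) and from -0.25 to 1.88 (class I-D/Q/T/M). Their lowest adjusted exact permutation p was 0.0391, under the threshold, for the window, class I-K, class II and class III. The highest was 0.104 for these sets, and 0.156 for class II. The share differences ran from -0.19 to 1.58 (window, stressed classes), from -0.29 to 0.59 (window, all classes), from -0.14 to 0.28 (window, rearing, activated), from -1.05 to 0.034 (window, by animal) and from -0.052 to 0.87 (class I-K, stressed classes). They also ran from -0.46 to 0.051 (class I-K, all classes), from -0.20 to 0.32 (class I-K, by animal), from -0.011 to 0.23 (class II, stressed classes), from -0.55 to 0.43 (class III, stressed classes) and from -0.39 to 0.87 (class III, rearing, activated). They also ran from -0.24 to 0.36 (class III, by animal), from -0.032 to 0.60 (class I-D/Q/T/M, stressed classes), from -1.13 to 0.13 (class III, standard-reared classes), from -0.17 to 0.012 (class II, rearing, non-activated) and from -0.69 to 0.28 (class III, rearing, non-activated). They also ran from -0.36 to 0.10 (class I-D/Q/T/M, rearing, non-activated). The numbers of separating regions ran from 0 to 3 (stressed classes, first group), from 1 to 2 (stressed classes, second group), from 0 to 1 (all classes, second group), from 0 to 1 (rearing, activated, first group) and from 4 to 95 (rearing, activated, second group). They also ran from 15 to 124 (standard-reared classes, first group), from 0 to 2 (standard-reared classes, second group), from 0 to 12 (rearing, non-activated, first group) and from 0 to 2 (rearing, non-activated, second group). As shares against all regions of the series, the count of 3 without stressed non-activated replicate 1 was 1.29% against 3.19%, and the count of 2 stressed non-activated regions without its replicate 3 was 0.692% against 0.386%. The count of 12 without standard-reared non-activated replicate 2 was 4.14% against 2.2%. The 2 standard-reared non-activated regions were 0.901% against 0.165% without standard-reared activated replicate 1 and 0.690% against 1.51% without non-activated replicate 1. The single region over all classes, without the latter, was 0.345% against 0.00403%. Among activated libraries the single stressed region was 0.346% to 0.45% against 0.272% to 0.681%, and among non-activated ones the 2 standard-reared regions were 0.858% against 0.495%. The ratios between parts ran from 1.17 to 1.35 (class I-K over class II), from 0.45 to 0.56 (class I-K over class III), from 1.40 to 1.61 (class I-K over class I-D/Q/T/M), from -0.86 to -0.66 (class II over class III) and from 0.18 to 0.32 (class II over class I-D/Q/T/M). They also ran from 0.94 to 1.12 (class III over class I-D/Q/T/M). The density ratios missed the threshold without standard-reared activated replicate 1 or non-activated replicate 2, as 5 animals cannot reach it. First and second group are activated and non-activated, or stressed and standard-reared.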
